A study of Mus musculus with 15 samples.

Results

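Genes of wild-type mouse fibroblasts were compared between the copies of the genome that a hybrid cell carries, genome 1 and genome 2, within each library. Every gene qualified whose counts assigned to either genome averaged 20 or more over the 3 wild-type libraries, which gave 12833 of the 55487 genes in the table. Of these, 12397 lay on the autosomes, 404 on the X chromosome, 20 on the mitochondrial genome and 1 on the Y chromosome, and 11 had no chromosome in the annotation. Knockout columns were not used. The choice rested on depth and not on the allele ratio. The genes just inside the minimum had 20 counts, such as Ctsw and Cldn20, and those just outside had 19.7, such as Slc8a1 and Tnfrsf4.

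The libraries came from a series of 15 samples on the nuclear deacylase SIRT7 and dosage compensation of the X chromosome. The 3 libraries used, called WT 1, 2 and 3, hold polyA RNA of female TTF cells (tail-tip fibroblasts in common usage) of C57BL6/CAST hybrid strain and wild-type SIRT7 genotype. The labels call them replicates and do not name separate animals, cultures or lines, so each p-value reflects spread among these libraries alone, which may be technical. The sources used here do not say which strain is genome 1 or which strain was the mother.

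In most genes of a diploid cell both copies are transcribed, and base differences between strains in promoters and transcripts can give the copies unequal output. Imprinted genes are an exception, since they are read from the copy of one parent. In female cells one X chromosome is silenced under the control of the noncoding RNA Xist, which is itself made by the silenced X, and a few genes escape that silencing. Mitochondrial DNA is inherited from the mother.

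The libraries held between 61065582 and 61506413 counts, of which 36.98% to 37.52% of those split by allele fell to genome 1 or 2. The tested genes held 99.8% of assigned counts in each library. Genome 1 took 52.0%, 51.9% and 52.1% of autosomal assigned counts. Pearson's r of the genome 1 share across genes was 0.890 to 0.902 between libraries, a description across genes that share these libraries. Every pair of libraries differed by more than counting noise (chi-square of the counts 23.5 to 30.7 per degree of freedom). Fibroblast markers were present, 12 of 13 at 1 CPM (counts scaled to the library total) or more with a summed level of 16042 to 16272 CPM. Summed marker levels of other cell types lay between 0.114 CPM for pluripotent cells and 21.7 CPM for skeletal muscle, where Acta1 led with 18.6 CPM.

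Most genes were transcribed from both copies but not equally. Across 12368 autosomal genes with assigned counts in every library, the median genome 1 share was 53.9% with quartiles of 39.6% and 63.6%, and 39.6% of genes lay between 40% and 60%. The allele difference was tested against equal shares with edgeR's quasi-likelihood model with a term for each library, and Benjamini-Hochberg adjusted p under 0.05 was called. This called 9117 of 12833 genes (71.0%). Genome 1 was higher in 5131 and genome 2 in 3986, while with TMM factors over the allele columns the order turned to 4219 and 4506. A difference of at least 2-fold was called in 4474 genes (34.9%), 2181 toward genome 1 (17.0%) and 2293 toward genome 2 (17.9%). Of the 12397 autosomal genes 8698 were called (70.2%), 5099 higher from genome 1 (41.1%) and 3599 from genome 2 (29.0%). In bulk RNA, an even lean in every cell and a mixture of cells that read different copies cannot be told apart.

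Whole autosomes leaned to one genome. The pooled genome 1 share was under 40% on chromosomes 1, 6, 9 and 10 and at least 55% on 10 chromosomes, which were 2, 7, 8, 11, 12, 14, 15, 16, 17 and 19. Chromosomes 3, 4, 5, 13 and 18 lay between. On chromosome 6 the share was 36.04%, 36.02% and 36.24% in WT 1, 2 and 3, and on chromosome 19 it was 69.66%, 68.86% and 69.98%. No autosome ranged by more than 1.80 percentage points over the libraries (chromosome 16), so the distance between these chromosomes was far above the spread between libraries. An exact two-sided sign-flip test over 3 libraries cannot go below p = 0.25, so none is given for single chromosomes. On every autosome but chromosome 18, where the pooled share was 49.2% and the median gene 50.1%, the median gene leaned the same way as the pooled counts. The median gene share was 37.6% on chromosome 6, 37.0% on chromosome 9 and 70.5% on chromosome 19. On chromosome 14 the median gene, at 66.4%, stood further from equal shares than the pooled counts, at 58.4%. Unequal copy number and unequal transcription of a chromosome cannot be told apart in these counts.

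**Figure D1:**
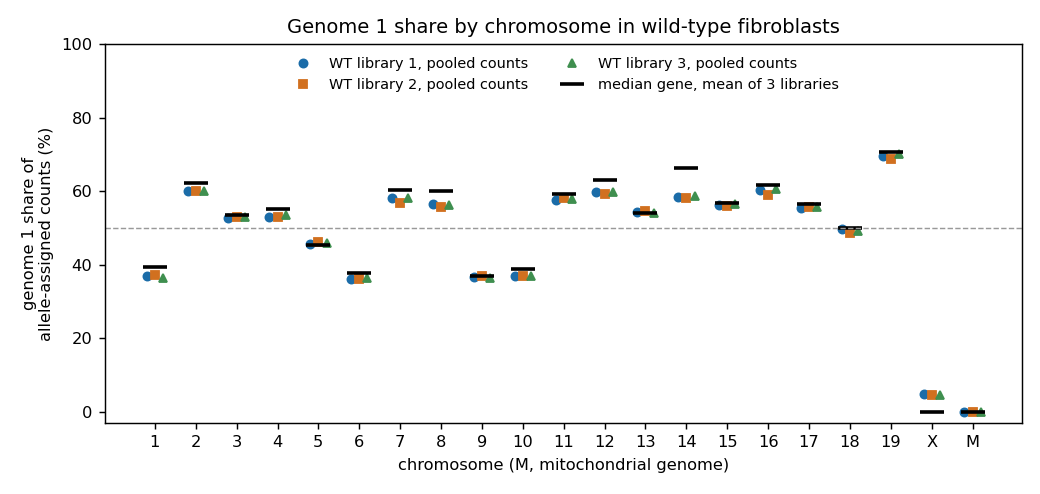
Genome 1 share of allele-assigned counts (percent, vertical axis) for each chromosome (horizontal axis; M is the mitochondrial genome). Points are the pooled counts of WT libraries 1 to 3 and bars the median gene; chromosomes 1, 6, 9 and 10 lie under 40%, chromosome 19 near 70% and the mitochondrial genome near 0 in all 3 libraries.

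Because of these chromosome-wide shares, each autosomal gene was also compared with the median gene of its own chromosome. This called 5545 of 12397 genes (44.7%), 2568 toward genome 1 (20.7%) and 2977 toward genome 2 (24.0%). Without WT 3 the genome 1 count was 1563. Of these calls, 4747 were also called against equal shares, and in 377 of those the direction was opposite. At 2-fold or more, 1137 genes (9.17%) stood above their chromosome and 1820 (14.7%) below it. Processed pseudogenes moved more often than protein-coding genes. The 2-fold call was made in 74.9% of 748 processed pseudogenes and in 20% of 10755 protein-coding genes, and near copies can exchange reads with their parent genes, so pseudogenes are not named below.

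Genes that differed most from their chromosome without meeting the single-allele threshold given below were named by a rule. It took the largest differences among genes with at least 200 counts. Toward genome 2 they included Prmt5, an arginine methyltransferase, with 133, 135 and 171 genome 1 counts in WT 1, 2 and 3 against 3308, 3095 and 3119 from genome 2. All 3 libraries gave Prmt5 a low genome 1 share, and its log2 ratio of genome 1 over genome 2 relative to chromosome 14 was -5.43 (SE 0.10, adjusted p = 8.44e-05). Mettl3, the catalytic subunit of the enzyme that methylates adenosine in mRNA, stood at 5.91% ± 1.52 on the same chromosome. Arhgap5, which encodes a GTPase-activating protein, had a share of 4.53% ± 1.32 on chromosome 12, and the surface protein gene Lrrc15 one of 3.98% ± 1.05 on chromosome 16 (SD, n = 3 each). Pacs1, a sorting protein of the Golgi, had 5.91% ± 0.609 on chromosome 19, whose median gene stood at 70.5%. Only 9.22% of the counts of Pacs1 were assigned to a genome. It lies among 7 neighbouring genes with low genome 1 shares, which are described below. The remaining 5 genome 2 genes of this rule all lay on chromosome 2, with Gchfr, Oip5os1, Vps39 and Stard9 between 119167773 (the start of Gchfr) and 120731895 (the end of Stard9) and Sh2d3c apart from them.

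Toward genome 1, Vkorc1l1, a relative of the vitamin K epoxide reductase, had 867, 906 and 868 genome 1 counts against 25, 77 and 23 from genome 2, on chromosome 5, where the median gene stood at 45.2%. Its log2 ratio relative to that chromosome was 4.83 (SE 0.42, adjusted p = 0.00204). The genome 1, genome 2 and unassigned counts of Vkorc1l1 summed to only 0.762, 0.769 and 0.730 of its all-read count in WT 1, 2 and 3. Pon2, a paraoxonase, had a share of 92.3% ± 2.11, on chromosome 6, where the median gene stood at 37.6%. The polyubiquitin gene Ubb had 95.4% ± 2.60, with 14.4% of its counts assigned to a genome (SD, n = 3 each). The remaining genome 1 genes of this rule rested on less even counts. Fam168b had 1748, 1957 and 4 genome 1 counts against 6, 8 and 6, and its call was lost without WT 1 or WT 2. Stmn1 had 2422, 2045 and 474 against 57, 30 and 107, and its call was also lost without WT 1 or WT 2. Rpgrip1, which had 730 genome 1 counts in WT 1 and none of either genome in WT 2 and 3, was called from that library alone, where the all-read count was 6. Its call was lost with limma, with DESeq2 and without the pairing of alleles by library. Desi2, Galk2, Mtch2 and Pced1a had 0 to 21 genome 2 counts a library, and leaving out WT 3 for Galk2 or WT 2 for Pced1a ended the call. Relative to its 10 Mb bin, an alternative chosen after seeing the data, Pced1a turned to a log2 ratio of -2.78 and the call of Mtch2 was lost.

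Genes with nearly all counts from 1 genome were then described by a threshold. A gene was called single-allele when 1 genome gave at least 95% of its counts in each of the 3 libraries. Such a share cannot tell a silent copy from a lost copy or from reads assigned to the wrong genome. On the autosomes 359 genes (2.9%) were single-allele for genome 1 and 414 (3.34%) for genome 2. Without pseudogenes the counts were 282 (2.44%) and 288 (2.49%) of 11563. Chromosome 2 stood apart from the other chromosomes and held 188 of the 282 and 49 of the 288, which were 20.7% and 5.39% of its 909 tested genes. Without pseudogenes and without chromosome 2, which was chosen after seeing the data, 94 genes (0.882%) were single-allele for genome 1 and 239 (2.24%) for genome 2.

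The most abundant single-allele genes of genome 1 included Fbn1, which encodes the microfibril protein fibrillin-1, on chromosome 2. It had 13561, 12470 and 12719 genome 1 counts in WT 1, 2 and 3 against 159, 202 and 165 from genome 2. The matrix cross-linking enzyme gene Loxl2 on chromosome 14 had 10117, 10233 and 10795 against 20, 23 and 28 (log2 ratio 8.77, SE 0.09, adjusted p = 3.22e-05). Thy1, a surface glycoprotein of fibroblasts, had 4434, 4477 and 4416 against 111, 98 and 83 on chromosome 9. Thy1 thus stood at 97.9% ± 0.299 (SD, n = 3) on a chromosome whose median gene stood at 37.0%. Ucp2, a carrier of the mitochondrial inner membrane, had 98.8% ± 0.378 on chromosome 7. The other 6 of the 10, all on chromosome 2, were Anapc1, a subunit of the anaphase-promoting complex, Prnp, the prion protein gene, Atp5g3, a subunit of ATP synthase, Nop56 of the snoRNA particles, B2m, the light chain of MHC class I, and the centromere protein gene Cenpb, at 99.7% to 99.9%.

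Single-allele genes of genome 2 included several genes of very high expression. Rps26, a ribosomal protein gene on chromosome 10, had 32077, 37989 and 35032 genome 2 counts against 143, 112 and 119 from genome 1 (log2 ratio -8.13, SE 0.16, adjusted p = 7.73e-05). Mmp14, a membrane-bound metalloproteinase that cuts collagen, had 6305, 6556 and 6413 against 37, 43 and 48, on chromosome 14. Mmp14 and Loxl2 therefore lay on the same chromosome with nearly all counts from opposite genomes in every library. Ddr2, a collagen receptor, had 2.72% ± 0.189 from genome 1, and the protein-unfolding ATPase gene Vcp 0.313% ± 0.0752 (SD, n = 3 each). The peroxidase Prdx2 stood at 0.690% ± 0.134, the spliceosomal protein gene Snrpf at 2.66% ± 0.510 and the prohibitin gene Phb2 at 0.119% ± 0.0911. Rplp1 (1.84%) and Rps13 (1.43%), ribosomal protein genes, and Pdia3 (0.0345%), a disulfide isomerase of the endoplasmic reticulum, complete the 10, with Pdia3 the only one on chromosome 2.

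Genome 1, genome 2 and unassigned counts were estimated apart from the count of all reads, so their sum is a check of the total of each gene. It cannot check which genome a count was assigned to. The sum came within 10% of the all-read count in every library for 70.6% of single-allele genes of genome 1, 66.0% of those of genome 2 and 65.0% of the other autosomal genes without pseudogenes. It was off by more than 1.5-fold in some library in 6.03%, 9.03% and 7.5%. The single-allele genes thus added up about as often as the rest. For Loxl2, Rps26, Mmp14 and Thy1 the sum was between 0.984 and 1.01 of the all-read count in each library, while for Ddr2 it was 0.579 to 0.638.

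On chromosome 2 the single-allele genes formed long blocks. Before position 65088339 (GRCm38) 304 genes had a median share of 59.5%, and after position 131938429 there were 287 genes with one of 60.6%, both near the chromosome median of 62.3%. Between them 318 genes had a median of 99.1%, with 188 at 90% or more, 47 at 10% or less and 81 between, beside genes that lacked assigned counts in a library (Gm13966 and Gm21985). Runs of at least 5 neighbouring tested genes with a mean share of at least 90%, or at most 10%, were counted, a rule chosen after seeing the data. There were 18 such runs in the genome with 190 genes, of which 14 runs and 164 genes lay on chromosome 2. The longest held 43 genes from Cobll1 to Ttc30b at chr2:65088339-75938585, with a median share of 99.98%. A run of 23 genes from Myef2 at chr2:125084628-127208280 had a median of 99.9%.

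The same stretch of chromosome 2 also held genes from the opposite genome. From Gm14091 to Stard9, at chr2:118829874-120731895, 3 runs of 6, 5 and 8 genes had shares of at most 9.04% from genome 1. In the 10 Mb from 110 to 120 Mb, 53 genes had a median share of 17.8%, while the bins from 60 to 110 Mb and from 130 to 140 Mb had medians of 95.9% to 99.9%. The 3 libraries had this pattern alike, as the bin from 110 to 120 Mb had medians of 16.1% to 21.5% over them. Over all 318 genes of the stretch, in runs or not, the assigned share of counts was 40.2% for the median gene. Before the stretch it was 43.5% and after it 46.2%.

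Outside chromosome 2 the shares were more even along the chromosomes. Of 239 bins of 10 Mb with at least 10 genes, 203 (84.9%) had a median within 5 points of their own chromosome and 13 were shifted by at least 15 points. The 6 bins shifted to genome 1 were all on chromosome 2. Of the 7 shifted to genome 2, 1 was on chromosome 2 and the others were on chromosomes 6, 7, 8, 11, 12 and 14. The bin at 130 to 140 Mb of chromosome 6 had a median of 15.6% over 30 genes, and that at 80 to 90 Mb of chromosome 8 one of 32.6% over 77 genes. Short runs toward genome 2 held 8 genes from Rfxank to Homer3 at chr8:70130794-70294361, 7 genes ending with Sf3b2 at chr19:5072229-5295455 and 6 genes from Dusp12 to Ufc1 at chr1:170873498-171295024. The only run toward genome 1 off chromosome 2 held 5 genes from Sgce to Pon2 at chr6:4674350-5298455, the imprinted cluster around Peg10.

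Imprinted genes were compared as lists of genes known to be read from the paternal or the maternal copy in at least some tissues. Whether each is imprinted in fibroblasts was not checked. Of 13 tested genes of the paternal list, 9 were single-allele for genome 1, against 2.9% of all autosomal genes, and 10 had a mean share of at least 90%. None was single-allele for genome 2. Peg10, derived from a retrotransposon, had 816, 802 and 887 genome 1 counts against 2, 4 and 0 from genome 2. Its neighbour Sgce, encoding a sarcoglycan, had 1225, 1468 and 1286 against 0, 0 and 4, and the noncoding Peg13 had 1361, 1406 and 1333 against 2, 0 and 6. These counts came almost wholly from genome 1 in each library. Mcts2 had 430, 478 and 481 against 37, 26 and 37, the lowest share of the 10 at 93.3%. Plagl1, a zinc finger factor, had 98.5% ± 0.205, the amino acid transporter Slc38a4 98.6% ± 0.937, and Dlk1, a membrane protein of the Notch ligand type, 99.5% ± 0.448 (SD, n = 3 each). Zrsr1 had 0 genome 2 counts among 271, which allows a share of up to 1.11%. The other tested genes of the list were Gab1, Sfmbt2 and Mest. Gab1 stood at 54.0% ± 0.509, and its call was lost without any 1 library. Sfmbt2 had 2, 4 and 4 genome 1 counts against 21, 22 and 26. Mest had 31, 47 and 34 genome 1 counts against 28, 4 and 4 and was not called.

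Of 11 tested genes of the maternal list, 4 were single-allele for genome 2, against 3.34% of all autosomal genes, and none for genome 1. Igf2r, the receptor that clears IGF2, had 1676, 1687 and 1752 genome 2 counts against 6, 0 and 6 from genome 1. Grb10, an adaptor that restrains growth signals, had 1237, 1380 and 1248 against 4, 0 and 4. The noncoding RNA gene H19 had 0 of 94 counts from genome 1 and Cdkn1c, an inhibitor of cyclin-dependent kinases, 0 of 89, which allow shares of up to 3.19% and 3.37%. The other 7 were transcribed from both copies, with means from 33.5% for Copg2 to 66.3% for Cd81, and they included Tssc4, Dhcr7, Nap1l4 and Osbpl5. Ube3a, a ubiquitin ligase imprinted in neurons, ranged up to 80.1% (WT 2) and was not called. The labels do not give the parent of each genome. All of these libraries are of the same hybrid strain, so strain and parent of origin cannot be told apart in them.

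**Figure D2:**
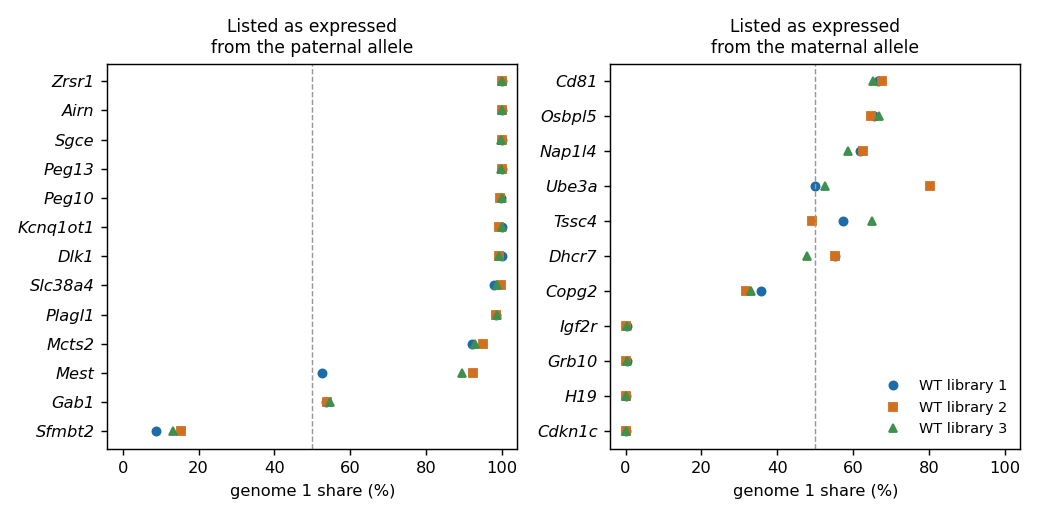
Genome 1 share (percent, horizontal axis) of each tested imprinted gene in WT libraries 1 to 3 (points), for genes listed as paternally expressed (left) and maternally expressed (right). On the left 10 of 13 genes sit at 90% or more; on the right Igf2r, Grb10, H19 and Cdkn1c sit near 0, and the means of the other 7 lie between 33.5% and 66.3%, with Ube3a reaching 80.1% in WT 2.

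Airn and Igf2r, which overlap, came from opposite copies. Airn, a noncoding RNA that starts inside Igf2r and runs against it, had 77, 87 and 75 counts from genome 1 and 0 from genome 2, which allows a share of up to 1.26%, while Igf2r had 0.233% from genome 1. Kcnq1ot1, a noncoding RNA that runs against Kcnq1, had 123, 128 and 98 counts from genome 1 against 0, 1 and 0, and lay in the same region of chromosome 7 as Cdkn1c. The sources do not state the strand setting of the counting, so reads of overlapping parts may be split between Airn and Igf2r. The start regions are shown because methylation at CpG positions marks the copies of imprinted genes. They are RefSeq promoters of GRCm38.p6, 250 bases before to 50 after the start, 5′ to 3′ on the strand of the gene, with CG in capitals.
Airn, chr17:12741061-12741360, plus strand: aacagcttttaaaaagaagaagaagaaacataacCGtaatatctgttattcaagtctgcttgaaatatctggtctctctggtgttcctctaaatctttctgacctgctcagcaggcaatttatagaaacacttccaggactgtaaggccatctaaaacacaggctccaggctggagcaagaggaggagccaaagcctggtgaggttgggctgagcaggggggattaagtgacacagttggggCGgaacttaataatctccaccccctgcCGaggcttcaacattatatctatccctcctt
Igf2r, chr17:12769657-12769956, minus strand: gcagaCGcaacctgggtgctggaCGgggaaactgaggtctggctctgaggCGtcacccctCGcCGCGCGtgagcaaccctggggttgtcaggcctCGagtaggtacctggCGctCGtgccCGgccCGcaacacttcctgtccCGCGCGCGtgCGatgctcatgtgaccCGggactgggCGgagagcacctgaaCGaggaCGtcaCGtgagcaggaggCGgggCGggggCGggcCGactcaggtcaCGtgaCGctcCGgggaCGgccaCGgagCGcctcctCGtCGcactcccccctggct
Kcnq1ot1, chr7:143296498-143296797, minus strand: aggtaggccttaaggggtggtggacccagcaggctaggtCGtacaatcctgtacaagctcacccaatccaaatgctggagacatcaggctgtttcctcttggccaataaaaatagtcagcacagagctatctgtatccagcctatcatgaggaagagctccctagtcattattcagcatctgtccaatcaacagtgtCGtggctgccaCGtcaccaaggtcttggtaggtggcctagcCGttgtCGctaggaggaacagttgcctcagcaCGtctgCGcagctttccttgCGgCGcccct
The Igf2r window held 34 CG, a number reached by 7.73% of the 32851 promoters of the table, where the median was 7. The Kcnq1ot1 window held 9, reached by 45.8%, and the Airn window 3, reached by 76.7%. Methylation was not measured in these libraries, and the counts of CG describe the reference strain only.

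Neighbouring cell cycle inhibitors on chromosome 4 gave a second contrast. Cdkn2b had 2700, 3085 and 2888 genome 2 counts in WT 1, 2 and 3 against 2, 5 and 0 from genome 1. Cdkn2a, which lies next to it and encodes p16 and ARF, had 7812, 7858 and 7946 genome 1 counts against 5544, 5780 and 5666. Cdkn2b was thus read nearly from genome 2 alone in each library, and Cdkn2a from both copies at 58.2% ± 0.474 (SD, n = 3), close to the chromosome median of 55.1%. Their RefSeq start regions, are shown in the same form to set the neighbours side by side.
Cdkn2a, chr4:89294570-89294869, minus strand: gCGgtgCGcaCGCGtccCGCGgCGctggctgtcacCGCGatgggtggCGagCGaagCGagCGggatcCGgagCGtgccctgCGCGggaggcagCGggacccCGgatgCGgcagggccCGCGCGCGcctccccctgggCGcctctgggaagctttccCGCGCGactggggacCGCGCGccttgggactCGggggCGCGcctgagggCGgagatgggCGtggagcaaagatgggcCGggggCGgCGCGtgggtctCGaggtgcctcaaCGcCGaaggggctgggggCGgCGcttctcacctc
Cdkn2b, chr4:89310983-89311282, minus strand: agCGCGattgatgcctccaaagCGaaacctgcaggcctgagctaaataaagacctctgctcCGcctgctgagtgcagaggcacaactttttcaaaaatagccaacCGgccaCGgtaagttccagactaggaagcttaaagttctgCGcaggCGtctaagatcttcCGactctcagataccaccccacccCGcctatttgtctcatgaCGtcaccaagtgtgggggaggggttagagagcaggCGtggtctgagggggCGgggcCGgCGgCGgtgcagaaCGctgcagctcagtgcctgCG
The windows held 45 CG for Cdkn2a, a number reached by 1.93% of promoters, and 18 for Cdkn2b, reached by 29.7%. The Cdkn2a window was the one nearest the outermost annotated start of the gene, 34 bases from it. Any start further inside the gene is not shown. Counts per gene do not separate p16 from ARF, so the share of Cdkn2a pools them. Among 19 tested genes of growth arrest, 9 were higher from genome 1, 5 from genome 2 and 5 did not pass the test against equal shares (41.1% and 29.0% of all autosomal genes were called in these directions), and the median share was 56.6%, near the 53.9% of all autosomal genes. Relative to their chromosomes 4 stood toward genome 1, 6 toward genome 2 and 9 did not pass. In that test 20.7% and 24.0% of all autosomal genes were called in these directions. Phlda3, a p53 target, had 34, 34 and 35 genome 1 counts against 1000, 976 and 948. Cdkn1b stood at 17.6% ± 2.81, in the shifted bin of chromosome 6, and was not called relative to that bin (log2 ratio 0.16, adjusted p = 0.377). Cdkn1a, the p21 gene, was at 56.7% ± 0.165 and Trp53 at 59.9% ± 3.31. Mdm2 had no genome 1 count but 4, 368 and 7 from genome 2, with 3.11% of its counts assigned.

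Nearly all X-linked genes were read from genome 2. Of 404 tested, 392 were called (97.0%), with genome 2 higher in 364 (90.1%) and genome 1 in 28 (6.93%), and 12 did not pass. Of 337 X-linked genes that were no pseudogenes, 309 (91.7%) were single-allele for genome 2, 2 (0.593%) for genome 1, and 182 had no genome 1 count in any library. Xist had 10559, 10195 and 10783 counts from genome 1 against 15, 8 and 5 from genome 2, the reverse of its chromosome. Its RefSeq start region, shown in the same form, held 15 CG, a number reached by 34.6% of promoters.
Xist, chrX:103483184-103483483, minus strand: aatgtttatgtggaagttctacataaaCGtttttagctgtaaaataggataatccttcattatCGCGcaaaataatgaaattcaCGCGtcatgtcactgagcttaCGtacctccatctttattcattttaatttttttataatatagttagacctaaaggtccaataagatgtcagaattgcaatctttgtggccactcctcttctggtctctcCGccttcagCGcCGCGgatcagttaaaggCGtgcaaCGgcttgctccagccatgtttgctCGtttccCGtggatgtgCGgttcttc
The only other single-allele X-linked gene of genome 1 without pseudogenes was Gm27927, which lies within Xist. Pseudogenes behaved differently, since 39 of 67 had at least 10% from genome 1, against 16 of 337 of the other genes.

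The genes with both X copies read formed an order. Kdm6a, a histone demethylase gene known to escape, had 286, 339 and 329 genome 1 counts against 265, 288 and 333, and Pbdc1 had 568, 579 and 654 against 515, 674 and 601. Neither was called against equal shares, and their shares overlapped over the libraries. Kdm5c (37.4% to 45.4%), Eif2s3x (40.8% to 44.2%) and 5530601H04Rik (33.0% to 43.2%) followed and overlapped each other, and Ddx3x came next (28.6% to 31.0%). The Kdm5c call was lost without WT 2 or WT 3, with limma and with no filter, and that of 5530601H04Rik without WT 1 or WT 3. The noncoding Firre had 7, 9 and 14 genome 1 counts against 28, 39 and 29. Ftx and Jpx, noncoding RNA genes beside Xist, had 10.5% to 19.2% and 7.61% to 15.3%. Among listed escape genes Usp9x had 0 of 10790 counts from genome 1, Utp14a 0 of 3628 and Shroom4 0 of 1423, which allow shares of up to 0.0278%, 0.0827% and 0.211%. Syap1, Ogt, Med14 and 1810030O07Rik stood at 0.0396% to 0.255%, and Car5b and Mid1 at 1.70% and 1.88%, so that 9 of the 18 listed genes were single-allele for genome 2. Of the inactivation list, the chromatin remodeller gene Atrx had 3, 1 and 3 genome 1 counts against 642, 732 and 724, and Rlim, an activator of Xist, had 0 of 1496, which allows up to 0.201%. The parts of Rlim summed to only 0.750, 0.265 and 0.264 of its all-read count in WT 1, 2 and 3, so its limit is uncertain.

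Further X-linked genes with a raised genome 1 share rested on few assigned reads. Morf4l2 had 11, 12 and 12 genome 1 counts against 47, 53 and 81, with 0.453% of its counts assigned to a genome. The ribosomal protein gene Rpl39 had 12.6% ± 0.899 with 0.219% assigned, and Rpl10 5.19% ± 1.18 with 0.856% assigned (SD, n = 3 each). Tmsb4x, which encodes an actin-binding peptide, had 9, 0 and 6 against 103, 28 and 60. Slc25a5, a nucleotide carrier of mitochondria, had 217, 213 and 7 genome 2 counts, and its share of 41.7% in WT 3 came from 5 against 7 counts, so that its call was lost without WT 1 or WT 2.

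**Figure D3:**
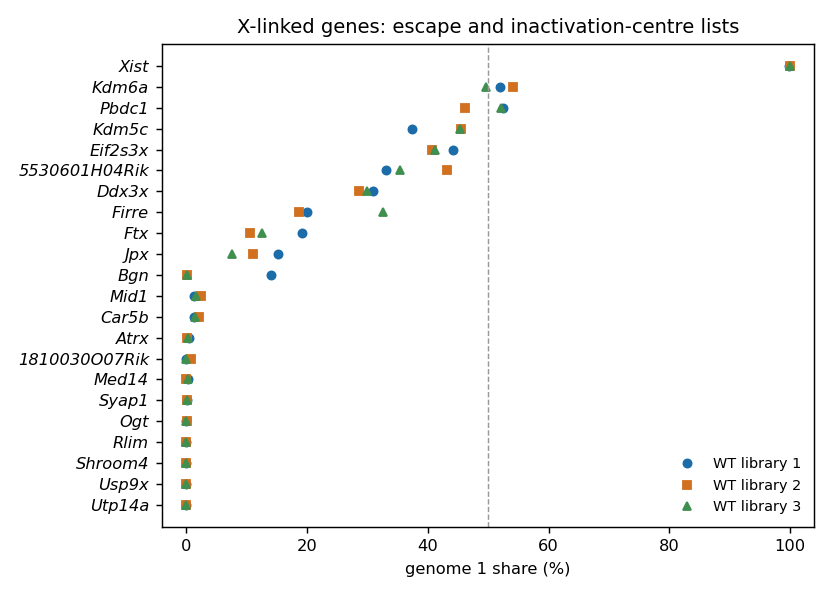
Genome 1 share (percent, horizontal axis) of the tested genes of the escape and inactivation-centre lists in WT libraries 1 to 3 (points). Xist lies at 99.9% and Kdm6a, Pbdc1, Kdm5c, Eif2s3x, 5530601H04Rik and Ddx3x between 28.6% and 54.1%, while Usp9x, Utp14a and Shroom4 lie at 0.

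Mitochondrial genes were read from genome 2 alone or nearly so. All 20 tested mitochondrial genes were single-allele for genome 2. Genome 1 took 0.00912%, 0.0110% and 0.0117% of 613857, 588595 and 675579 assigned mitochondrial counts in WT 1, 2 and 3. The cytochrome b gene mt-Cytb had 153985, 151273 and 168446 counts from genome 2 against 23, 23 and 25 from genome 1. For mt-Nd5, a subunit of respiratory complex I, no genome 1 count was seen among 193857. The oxidase subunit gene mt-Co1 had 14, 13 and 26 genome 1 counts, and mt-Nd4 and mt-Nd6 had 2 to 5 a library. Genome 1 thus had a lower share here than on any autosome or the X.

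Of 8 tested genes of MHC class I and antigen presentation, 3 were higher from genome 1, 4 from genome 2 and 1 did not pass, against 41.1% and 29.0% of all autosomal genes in these directions. The classical heavy chains H2-D1 (105, 108 and 108 against 332, 284 and 382) and H2-K1 (27.1% ± 11.0) leaned to genome 2, as did the peptide transporter genes Tap1 (13.2% ± 4.81) and Tap2 (20.6% ± 1.27). H2-T22 (87.1% ± 3.90), H2-T24 and B2m leaned to genome 1 (SD, n = 3 each). All of these but B2m lie on chromosome 17, where the median gene stood at 56.4%. Class I genes are near-identical paralogs that vary between strains, so the counting may have split their reads, and these shares are uncertain.

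Among 14 tested interferon-induced genes, 10 were higher from genome 1, 1 from genome 2 and 3 did not pass. Relative to their chromosomes 6 stood toward genome 1, 3 toward genome 2 and 5 did not pass. In that test 20.7% and 24.0% of all autosomal genes were called in these directions. Ifit1, Ifit2, Ifit3 and Ifit3b lie on chromosome 19, whose median gene stood at 70.5%. Against equal shares 41.1% of all autosomal genes were called for genome 1, and the list's median share was 67.0% against 53.9%. Ifit2, an RNA-binding antiviral protein gene, had 762, 768 and 822 genome 1 counts against 35, 16 and 33. Bst2, encoding tetherin, stood at 88.1% ± 3.85 and the GTPase gene Irgm1 at 83.0% ± 2.55 (SD, n = 3 each), while Gbp3 stood at 16.9%. Ifi27l2a had 74.4% ± 3.77, and its call relative to chromosome 12 was lost without WT 2 or WT 3.

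Of 13 tested genes of glutathione conjugation, which attach glutathione to reactive compounds, 4 were higher from genome 1, 8 from genome 2 and 1 did not pass, and relative to their chromosomes the counts were the same. Over all autosomal genes 41.1% and 29.0% were called in these directions against equal shares, and 20.7% and 24.0% relative to the own chromosome. Gstp1 had 8897, 7774 and 7911 genome 1 counts against 1201, 1212 and 1124, whereas its neighbour and paralog Gstp2 leaned to genome 2 at 29.4% ± 5.61. Both lie on chromosome 19, whose median gene stood at 70.5%. Gstm2 had 27.9% ± 0.472 and the microsomal Mgst3 26.9% ± 0.597, while Gsto1 had 70.4% ± 0.771, equal to its chromosome (SD, n = 3 each). Gsta4 had 80, 105 and 96 counts from genome 1 and 0 from genome 2, which allows a share of up to 1.07%. Gstp1 and Gstp2 are near-identical, so the split of reads between them is uncertain.

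Of 52 tested matrix genes, whose products fibroblasts secrete, 19 were higher from genome 1, 21 from genome 2 and 12 did not pass, with a median share of 50.2%. All autosomal genes were called at 41.1% and 29.0%, while the genome 2 count of the list includes the X-linked Timp1 and Bgn. Relative to their chromosomes 21 of 50 autosomal members stood toward genome 1, 17 toward genome 2 and 12 did not pass. Over all autosomal genes these directions held 20.7% and 24.0%. Sparc, a collagen-binding glycoprotein and among the deepest genes, had 113671, 116078 and 114240 genome 1 counts against 46819, 48436 and 47350. Its share of 70.7% ± 0.135 (SD, n = 3) compares with 59.3% for the median gene of chromosome 11. Col5a1, of the fibril-forming type V collagen, had 10364, 8965 and 9399 against 24997, 21937 and 23282, which put it at a log2 ratio of -2.01 (SE 0.02, adjusted p = 3.31e-05) relative to chromosome 2. Fmod, a collagen-binding proteoglycan, stood at 89.5% ± 1.59, Lamc1, a laminin chain, at 17.3% ± 0.617 and Ccn2, a matricellular growth factor, at 19.8% ± 0.65. The X-linked Timp1, an inhibitor of metalloproteinases, had 7, 4 and 5 genome 1 counts against 1414, 1337 and 1420. Bgn, a proteoglycan gene also on the X, had 129, 36553 and 35188 genome 2 counts, so that its call was lost without WT 3.

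Of 76 tested ribosomal protein genes, 35 were higher from genome 1, 32 from genome 2 and 9 did not pass, against 41.1% and 29.0% of all autosomal genes called in these directions, and the median share was 52.0%. Relative to their chromosomes 21 of 73 autosomal members stood toward genome 1 and 29 toward genome 2. Over all autosomal genes these were 20.7% and 24.0%. Rpl26 had 624, 690 and 590 genome 1 counts against 6389, 6671 and 5688, while Rps19 had 18086, 18887 and 19404 against 6300, 6629 and 6815. The X-linked Rps4x had 0.0675% from genome 1. Many processed pseudogenes carry near copies of these genes, and Rps16, Rps9 and Rpl24 had under 1% of their counts assigned, so their shares are uncertain. Of 270 zinc finger genes, 122 were higher from genome 1, 54 from genome 2 and 94 did not pass, with a median share of 57.4%, against 41.1% and 29.0% of all autosomal genes. Relative to their chromosomes the counts were 45, 31 and 190 of 266, against 20.7% and 24.0% of all autosomal genes. Zfp106 in the genome 2 run of chromosome 2 had 287, 280 and 232 against 5453, 5375 and 5783, and Zfp341 on the same chromosome had 12.1% ± 0.917. Zfp609 (19.5% ± 1.25) and Zfp384 (17.5% ± 1.27) lay on chromosomes 9 and 6 (SD, n = 3 each).

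Clustered protocadherins, neuronal adhesion genes of which some share exons, had 21 tested members. Of these 4 were higher from genome 1, 8 from genome 2 and 9 did not pass, against 41.1% and 29.0% of all autosomal genes. Pcdhga7 had 423, 558 and 478 genome 1 counts against 61, 53 and 80, while Pcdhga12 of the same cluster had 3, 0 and 3 against 98, 65 and 81. Pcdhga6 stood at 71.6% ± 1.60 and Pcdhb5 at 1.39% ± 2.41 (SD, n = 3 each). Pcdhga6, Pcdhga7 and Pcdhga12 overlap each other in the annotation, so their counts can be split between them. Pcdhb5 overlaps predicted genes only.

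The share was repeatable in most genes and not in a minority. Among 11563 autosomal genes without pseudogenes the median SD of the share over the libraries was 2.58 points, and the share ranged by over 20 points in 1288 (11.1%) and by over 50 points in 176 (1.52%). The median range fell from 18.0 points at 20 to 50 mean counts to 1.59 points at 5000 counts or more. Wide ranges were also seen at high depth. The 5 genes of largest range with at least 200 counts were Chmp6, Vps26a, Tbpl1, Sbno1 and Tead1. Vps26a, of the retromer sorting complex, had 23, 1434 and 1176 genome 1 counts against 1519, 5 and 5 from genome 2. Tead1, the transcription factor partner of YAP, had 4412, 202 and 4410 against 209, 3505 and 161, and Chmp6, of the ESCRT-III complex, 4, 518 and 4 against 393, 3 and 460. In these genes the side with the counts changed between libraries. Of the genes that ranged by over 50 points, 14.2% had parts that summed to within 10% of the all-read count in every library and 53.4% were off by more than 1.5-fold in some library, against 69.0% and 5.11% of genes that ranged by 20 points or less. In Tead1 the parts summed to 2.55, 3.57 and 3.58 times the all-read count. The part of this in the swings of the share was not tested.

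**Figure D4:**
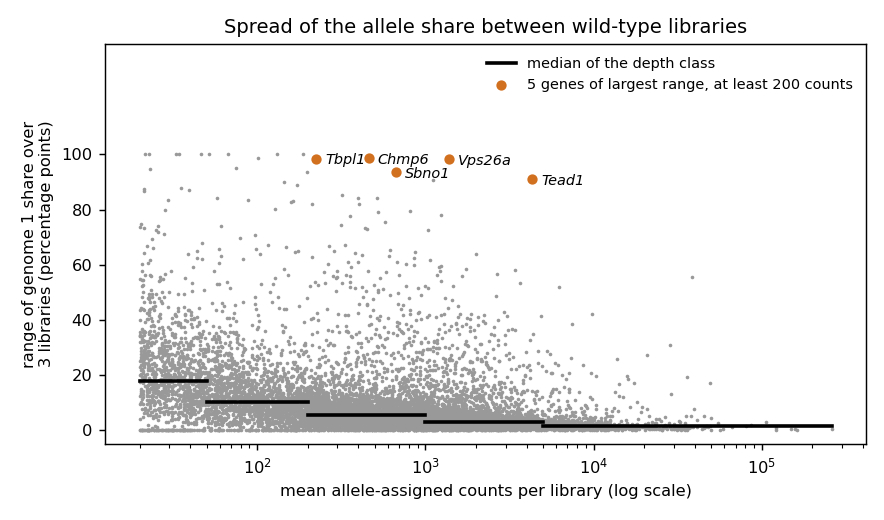
Range of the genome 1 share over 3 wild-type libraries (percentage points, vertical axis) against the mean allele-assigned counts per library (horizontal axis, log scale) for autosomal genes without pseudogenes (grey). Black bars are the medians of 5 depth classes, from 18.0 to 1.59 points; Chmp6, Vps26a, Tbpl1, Sbno1 and Tead1 (orange) lie far above the bars of their depth.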

How the data were processed

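PolyA RNA of TTF cells was sequenced, per the labels' protocols. Among the tools named in the submitters' processing notes are StringTie 1.3.3, which estimates counts from coverage, and the aligner HISAT2 2.1.0, with the builds mm10 and GRCm38. The authors deposited estimated counts per gene as whole numbers, once for all reads and once by allele (genome 1, genome 2, unassigned). They needed no rounding, and 12 further columns of per-sample values were not used. The deposited table is named for SNPsplit, which sorts reads by strain-specific bases. Its settings, the strand setting and the annotation are not stated in these sources. Genes were placed with GENCODE M21 (GRCm38), which matched 55141 of 55487 genes. Pseudogenes, overlaps and start sites come from it and from RefSeq (GRCm38.p6), where 9123 tested genes matched a promoter by symbol.

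Each gene that averaged 20 or more allele-assigned counts was tested with edgeR 4.0.16 (R 4.3.3): library and allele terms, the same library size for both alleles, no TMM, and Benjamini-Hochberg adjustment at 0.05 over all genes tested. A second fit took out the median log2 ratio of each autosome (prior 0.5 counts). Both alleles of a library come from the same RNA, so the library term pairs them by construction. Standard errors are the absolute log2 ratio divided by the square root of F. The model was tested on simulated data with a single dispersion, lower than the common dispersion of these libraries. That test does not give the rate of false calls in the real counts. Shares of 0 carry the limit that 3 counts allow, which covers counting error only. CPM are counts per 1e+06 all-read counts. The total counts of about 61065582 per library and the assigned share set the depth of each ratio.

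Named genes were the 10 most abundant single-allele genes per genome, the 10 largest differences from the own chromosome per genome at 200 or more counts, Xist, escape genes, 5 further X-linked genes of at least 50 counts, imprinted genes by counts with examples, up to 4 members per list by p, and the 5 largest ranges over libraries, without predicted or unnamed genes. Genes named beside these were chosen after their values were seen. The members and lists were chosen with earlier results of these data known. Alternatives were limma 3.58.1, DESeq2 1.42.0, TMM, other count minima, no pseudogenes, no library term, other thresholds and bins, and each library left out.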

Additional observations from a re-analysis of the deposited data

How the results depend on the processing

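Counts of genes called in either test stayed within 1.5 times of their value under every alternative run, except the genome 1 count relative to the own chromosome without WT 3. Against equal shares 9117 genes were called, and 7696 to 9466 under the alternatives, the lowest without WT 3. Both alleles of a library form a pair, and with no replicate block 9319 genes were called against equal shares and 5743 relative to the own chromosome. Relative to the own chromosome the genome 1 count of 2568 became 1563 to 1726 with a library left out, lowest without WT 3. Single-allele genes of genome 2 numbered 259 at a threshold of 98%, against 414, and those of genome 1 numbered 164 without chromosome 2, against 359; leaving out a library gave 386 to 393 for genome 1 and 448 to 460 for genome 2. With the median gene in place of pooled counts chromosome 6 moved from 36.1% to 37.6% and chromosome 19 from 69.5% to 70.5%, and without pseudogenes chromosome 6 was at 37.0%. With 5 Mb bins 8.36% of bins were shifted, against 5.44%. Relative to the 10 Mb bin, chosen after seeing the data, the log2 ratio changed sign for Cdkn1b (0.16), Gab1 (1.32) and Pced1a (-2.78), and the calls of Atp5g3 and Mtch2 were lost. Without pseudogenes the medians of the bins that replaced the chromosome median were 15.6% for Cdkn1b, 32.6% for Gab1 and 99.8% for Pced1a. Those for Atp5g3 and Mtch2 were 99.9% and 95.9%. Why these bins differ from their chromosomes was not tested. Chmp6 and Tead1 passed without WT 2, and Vps26a without WT 1. Allele shares rest on the 37% of counts that could be assigned, and at 20 to 50 counts a range of 18.0 points between libraries was typical. No alternative can separate strain, parent of origin and line in 3 libraries of 1 group.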

Other observations

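A single gene that the annotation places on the Y chromosome, Gm47283, passed the count minimum in these female libraries. Whether its reads came from a Y chromosome was not tested. It had 54, 47 and 45 counts from genome 2 and 0 from genome 1, and 2.0% of its counts were assigned.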
